A study of Mus musculus with 8 samples.

Results

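Goblet cell and mucus genes of the mouse small intestine were examined in animals kept at low oxygen, with and without nitrate. They comprised 10 genes, Muc2, Fcgbp, Clca1, Zg16, Tff3, Spink4, Agr2, Muc13, Atoh1 and Spdef, picked by gene name from the 55421 genes of the count table. The samples, labelled small intestine of wild-type mice, were measured by bulk RNA sequencing, while their extraction protocol names islets. Of them 4 were Hypoxia+Nitrate (7% oxygen for 7 days with 4 mM nitrate) and 4 Hypoxia (7% oxygen for 7 days alone). Both groups shared the low oxygen, so no sample shows the level of these genes at normal oxygen. The labels state no age, sex, strain or region of intestine. They also do not say that the samples of a group are different animals, and the p-values below then reflect only how much these samples varied, which may be technical.

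Goblet cells are the secretory cells of the intestinal epithelium that make mucus, the gel that keeps microbes and digested food away from the cell surface. The gel is a net of the mucin Muc2, to which other secreted proteins are bound, and membrane-anchored mucins cover the cells beneath it. The cells arise in the crypts under the transcription factor Atoh1, which sets the secretory fate, and mature under Spdef. In bulk tissue, fewer goblet cells and less RNA per goblet cell cannot be told apart.

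The libraries of the groups differed in what they held. Total counts lay between 8662279 and 63943036 in Hypoxia+Nitrate and between 5345377 and 21835865 in Hypoxia. Mitochondrial protein-coding genes took 64.0%, 7.31%, 6.90% and 49.3% of counts in Hypoxia+Nitrate 1 to 4 and at most 1.06% in Hypoxia. A background level was estimated in each library from 1468 autosomal genes for receptors of smell, pheromones and trace amines, taken as silent in gut, as counts per kb of exonic sequence free of other genes. It amounted to 2.74% to 23.2% of nuclear protein-coding counts in Hypoxia+Nitrate and 39.0% to 63.6% in Hypoxia. The counts of a gene divided by its own expected background are given below as times expected. For 95% of the receptor genes this ratio was at most 3.73 to 4.79 in the Hypoxia+Nitrate libraries and 2.40 to 2.63 in the Hypoxia libraries. Its median over receptor genes was 0, 0.419, 0.0807 and 0 in Hypoxia+Nitrate 1 to 4, against 0.918 to 1.02 in Hypoxia. Any count was found in 31.1% to 82.3% of receptor genes in Hypoxia+Nitrate and in 99.0% to 99.6% in Hypoxia. In Hypoxia+Nitrate the estimate thus rested on a part of the receptor genes, and times expected is not fully alike between the groups.

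All 10 genes passed the filter on low counts. Of them 6 were higher in Hypoxia+Nitrate in the test across all genes (edgeR quasi-likelihood test, adjusted p under 0.05): Spink4, Muc13, Zg16, Agr2, Atoh1 and Tff3. None of the 10 was lower. Over all 35431 genes tested, 24.4% were called, 11.7% higher and 12.7% lower, and of the protein-coding genes tested 18.5% were higher. The median log2 fold change of the 10 genes was 2.54, against -0.58 for all genes tested. Values below are CPM, read counts scaled to a common library size with TMM factors, unless stated otherwise. For 4 of the 10 genes, Zg16, Tff3, Spink4 and Muc13, every Hypoxia+Nitrate library lay above every Hypoxia library, which held for 12% of all genes tested, and no member lay entirely lower, as 28.8% of all genes did. The count of 6 rested on the libraries used. It was 1, Spink4 alone, without Hypoxia 1, without Hypoxia 3 or without Hypoxia 4, it was 3 without Hypoxia+Nitrate 4, and it reached 9 without Hypoxia+Nitrate 2 or without Hypoxia+Nitrate 3. The number of all genes called higher was 4163 in the full data and 676, 1580 and 1631 without Hypoxia 1, 3 and 4. It was 5974 of 41753, 5490 of 41885 and 2866 of 37453 genes without Hypoxia+Nitrate 2, 3 and 4, so it moved along with the member count. Without Hypoxia 1 the log2 fold changes of Tff3, Zg16 and Muc13 were 4.33 (SE 1.6), 4.597 (SE 1.47) and 4.65 (SE 1.42), against 4.38, 4.76 and 4.81 with all libraries.

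**Figure D1:**
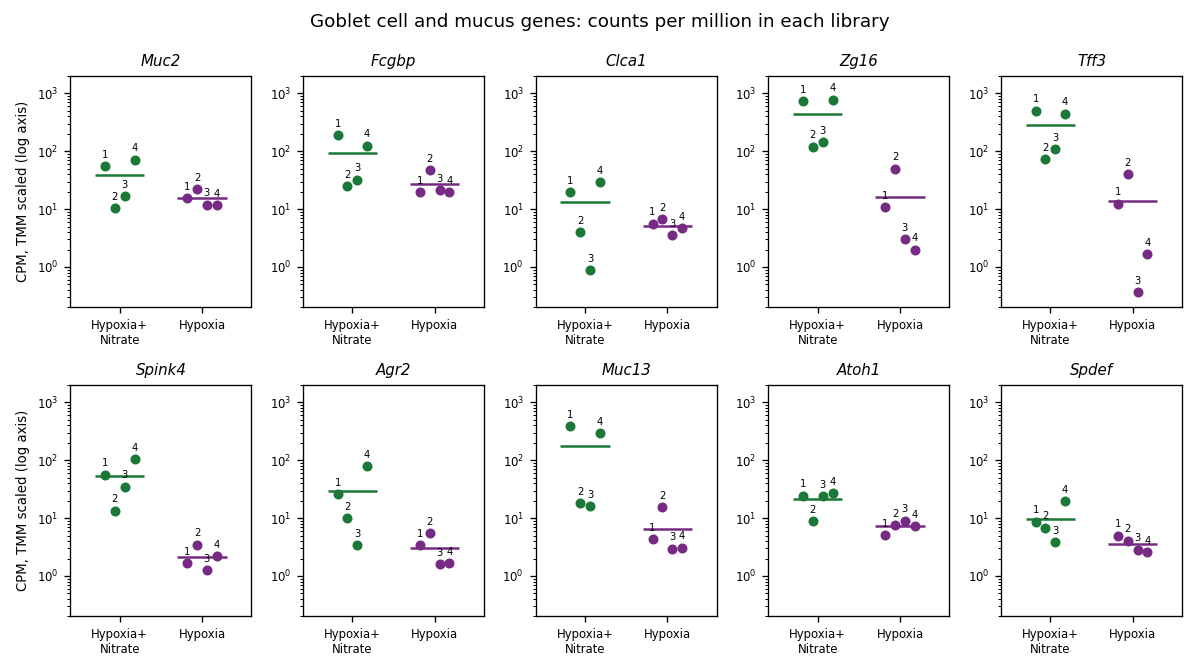
CPM (TMM scaled, log axis) of the 10 genes in each library, with the library number above each point and a line at the group mean of 4 libraries. Zg16, Tff3, Spink4 and Muc13 do not overlap between the groups, while Clca1 lies at 0.871 CPM in Hypoxia+Nitrate 3, below all Hypoxia libraries.

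The proteins that build the mucus gel overlapped between the groups. Muc2, the gel-forming mucin itself (ENSMUSG00000025515, chromosome 7, 141690340 to 141754693, plus strand, GRCm38), had 54.6, 10.3, 16.9 and 72.1 CPM in Hypoxia+Nitrate 1 to 4, against 15.6, 22.3, 11.9 and 11.6 CPM in Hypoxia 1 to 4. Hypoxia+Nitrate 1 and 4 stood above all Hypoxia libraries, and Hypoxia+Nitrate 2 and 3 lay among or below them. Muc2 missed the threshold, with a log2 fold change of 1.33 (SE 0.613, edgeR adjusted p = 0.128). It passed without Hypoxia+Nitrate 2, at 1.68 (SE 0.549, edgeR adjusted p = 0.0244, range over 26 alternatives 0.0199 to 0.989). The low end of that range is from a fit given below, with background subtraction and epithelial scaling, in which Muc2 was lower (-3.21). With both Hypoxia+Nitrate 1 and 4 left out, its log2 fold change was -0.074. The annotation marks Muc2 as a fragmented locus with 7127 bp of exonic sequence, so its values per length are uncertain.

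Fcgbp encodes a large mucus protein that binds Muc2 (ENSMUSG00000047730, chromosome 7, 28071236 to 28120862, plus strand). It had 189.6, 24.9, 32.3 and 125.3 CPM in Hypoxia+Nitrate 1 to 4, against 19.4, 46.6, 21.5 and 19.5 CPM in Hypoxia 1 to 4. Only the value of Hypoxia 2 exceeded any Hypoxia+Nitrate value, and Fcgbp missed the threshold, with a log2 fold change of 1.798 (SE 0.702, edgeR adjusted p = 0.0818). It passed without Hypoxia+Nitrate 2, at 2.14 (SE 0.657, edgeR adjusted p = 0.0185), and without Hypoxia+Nitrate 3, at 2.25 (SE 0.72, edgeR adjusted p = 0.0357, range over 26 alternatives 0.0139 to 0.887). Clca1, a secreted metalloprotease that processes Muc2 (ENSMUSG00000028255, chromosome 3, 145003817 to 145032776, minus strand), had 19.4, 3.98, 0.871 and 28.9 CPM in Hypoxia+Nitrate 1 to 4, against 5.61, 6.76, 3.53 and 4.70 CPM in Hypoxia 1 to 4. Hypoxia+Nitrate 1 and 4 lay above the Hypoxia range, Hypoxia+Nitrate 2 within it and Hypoxia+Nitrate 3 below it. Clca1 averaged 13.3 ± 13.2 CPM in Hypoxia+Nitrate and 5.15 ± 1.37 CPM in Hypoxia (SD, n = 4 each), with a log2 fold change of 1.37 that did not pass (SE 0.827, edgeR adjusted p = 0.227). Without Hypoxia+Nitrate 3 it passed, at 1.94 (SE 0.629, edgeR adjusted p = 0.0375, range over 26 alternatives 0.0239 to 0.923). The low end of that range is from the fit scaled to general epithelial genes, given below, in which Clca1 was lower (-3.996). With library size as the only scaling the log2 fold change of Clca1 was -0.32.

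Promoter sequences from RefSeq (GRCm38.p6; 250 bases before to 50 bases after the annotated start) were at hand for 6 of the 10 genes, Atoh1, Fcgbp, Muc2, Agr2, Muc13 and Spdef. The words searched on both strands were CAGCTG and CATCTG, E-box words of the family of factors to which Atoh1 belongs, CGGAT, a core read by ETS factors such as Spdef, and ACGTG, the core read by hypoxia-inducible factors. They occurred in 16.3%, 17.2%, 16.3% and 19.6% of 32851 promoters of the same length, and none of the words overlapped another in the sequences shown. The promoters of both gel proteins and of the goblet regulator Spdef are shown, since these 3 genes did not pass and each holds at least 1 of the words, in capitals. They were thus picked for holding a word, and the share of all promoters with at least 1 of the words was not counted.
Muc2 (chr7:141690090-141690389, plus strand): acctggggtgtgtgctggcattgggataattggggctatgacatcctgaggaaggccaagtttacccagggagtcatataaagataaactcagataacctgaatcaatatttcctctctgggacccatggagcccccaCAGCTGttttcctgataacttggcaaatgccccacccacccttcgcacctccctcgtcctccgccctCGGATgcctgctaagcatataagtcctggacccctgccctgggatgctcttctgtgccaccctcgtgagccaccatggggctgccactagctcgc
Fcgbp (chr7:28070986-28071285, plus strand): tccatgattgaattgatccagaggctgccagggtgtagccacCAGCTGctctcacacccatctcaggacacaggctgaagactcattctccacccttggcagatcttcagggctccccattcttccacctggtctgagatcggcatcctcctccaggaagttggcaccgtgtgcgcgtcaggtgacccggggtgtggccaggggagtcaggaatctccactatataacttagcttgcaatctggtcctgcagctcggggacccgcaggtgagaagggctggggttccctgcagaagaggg
Spdef (chr17:27728902-27729201, minus strand): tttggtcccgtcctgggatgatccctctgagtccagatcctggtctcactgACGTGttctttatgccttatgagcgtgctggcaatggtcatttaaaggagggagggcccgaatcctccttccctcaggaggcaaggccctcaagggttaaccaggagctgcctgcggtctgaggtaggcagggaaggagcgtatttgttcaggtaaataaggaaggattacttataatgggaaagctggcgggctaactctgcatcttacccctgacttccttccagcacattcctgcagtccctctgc
Muc2 holds CAGCTG at bases -112 to -107 and CGGAT at -45 to -41 relative to the start, Fcgbp holds CAGCTG at -208 to -203, and Spdef holds ACGTG at -199 to -195. A match is a description of these letters and not a binding site. The promoters of Atoh1 and Agr2 hold none of the words in this window, and 1 of the 2 Muc13 promoters holds CATCTG at -44 to -39.

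The small secreted proteins of goblet granules separated the groups. Zg16, a lectin-like protein that binds Gram-positive bacteria in the mucus (ENSMUSG00000049350, chromosome 7, 127050156 to 127087328, minus strand), had 741.6, 119.8, 144.2 and 780.2 CPM in Hypoxia+Nitrate 1 to 4, against 10.9, 49.97, 3.06 and 1.99 CPM in Hypoxia 1 to 4. The lowest Hypoxia+Nitrate library was above the highest Hypoxia library, although Hypoxia libraries themselves ranged widely. Zg16 rose with a log2 fold change of 4.76 (SE 1.22, edgeR adjusted p = 0.0194).

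Tff3, the trefoil peptide that aids repair of the epithelium (ENSMUSG00000024029, chromosome 17, 31125306 to 31129646, minus strand), had 502.0, 73.0, 107.8 and 447.0 CPM in Hypoxia+Nitrate 1 to 4, against 12.4, 39.8, 0.369 and 1.69 CPM in Hypoxia 1 to 4. In raw counts it had 7067, 1284, 1980 and 9164 in Hypoxia+Nitrate and 186, 547, 7 and 28 in Hypoxia. Hypoxia 3, with 7 counts where 10.2 were expected from background, showed no Tff3 above background at this depth. Tff3 rose with a log2 fold change of 4.38 (SE 1.31, edgeR adjusted p = 0.0344).

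Spink4, a small protein of the Kazal-type inhibitor family found in goblet granules (ENSMUSG00000028415, chromosome 4, 40920052 to 40931395, plus strand), had 56.5, 13.5, 35.0 and 105.4 CPM in Hypoxia+Nitrate 1 to 4, against 1.67, 3.49, 1.26 and 2.23 CPM in Hypoxia 1 to 4. Its Hypoxia values were the closest together of the 3 granule genes. Spink4 rose with a log2 fold change of 4.603 (SE 0.7, edgeR adjusted p = 0.00917) and passed in all 8 fits that left out 1 library (edgeR adjusted p from 0.0016 to 0.0482). By the same measure Zg16 passed in 5 of these 8 fits and Tff3 in 3.

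Agr2, the endoplasmic reticulum protein needed to fold Muc2 (ENSMUSG00000020581, chromosome 12, 35992907 to 36004087, plus strand), had 25.9, 9.89, 3.43 and 78.1 CPM in Hypoxia+Nitrate 1 to 4, against 3.41, 5.46, 1.58 and 1.69 CPM in Hypoxia 1 to 4. Hypoxia+Nitrate 3 lay within the Hypoxia range and the other Hypoxia+Nitrate libraries above it. Agr2 rose with a log2 fold change of 3.28 (SE 0.888, edgeR adjusted p = 0.0239) and passed in 4 of the 8 fits without 1 library.

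Muc13, a membrane-anchored mucin made by enterocytes as well as goblet cells (ENSMUSG00000022824, chromosome 16, 33794037 to 33819934, plus strand), had 386.8, 18.3, 16.2 and 295.6 CPM in Hypoxia+Nitrate 1 to 4, against 4.34, 15.3, 2.95 and 3.07 CPM in Hypoxia 1 to 4. The groups were kept apart by a narrow margin, between Hypoxia+Nitrate 3 and Hypoxia 2. Muc13 rose with a log2 fold change of 4.81 (SE 1.18, edgeR adjusted p = 0.0167). Its exonic sequence overlaps that of Gm15657 in part, and 93.9% of it is free of other genes. For the other 9 members the whole exonic sequence is free of other genes.

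Of the transcription factors, Atoh1 (ENSMUSG00000073043, chromosome 6, 64729125 to 64731245, plus strand) had 24.6, 8.87, 23.7 and 26.8 CPM in Hypoxia+Nitrate 1 to 4, against 5.14, 7.49, 9.01 and 7.17 CPM in Hypoxia 1 to 4. Hypoxia+Nitrate 2 lay just under Hypoxia 3, and the other 3 Hypoxia+Nitrate libraries stood above all Hypoxia libraries. Atoh1 rose with a log2 fold change of 1.54 (SE 0.443, edgeR adjusted p = 0.0296), the smallest of the 6 called members, and passed in 2 of the 8 fits without 1 library. Spdef (ENSMUSG00000024215, chromosome 17, 27714352 to 27728955, minus strand) had 8.74, 6.82, 3.86 and 19.5 CPM in Hypoxia+Nitrate 1 to 4, against 5.01, 4.07, 2.85 and 2.59 CPM in Hypoxia 1 to 4. Only Hypoxia+Nitrate 3 overlapped the Hypoxia range, and the log2 fold change of 1.42 for Spdef did not pass (SE 0.558, edgeR adjusted p = 0.0834). It passed without Hypoxia+Nitrate 2, at 1.603 (SE 0.578, edgeR adjusted p = 0.0370), and without Hypoxia+Nitrate 3, at 1.86 (SE 0.525, edgeR adjusted p = 0.0222, range over 26 alternatives 0.0147 to 0.983).

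Per kb of exonic sequence, Tff3, Zg16 and Spink4 led the order of levels in both groups. In Hypoxia+Nitrate Tff3 stood at 573 ± 453 CPM per kb, followed by Zg16 at 355 ± 289, Spink4 at 110 ± 82.5, Muc13 at 59.0 ± 62.8 and Agr2 at 22.7 ± 26.2 CPM per kb (SD, n = 4 each). Atoh1, Fcgbp, Muc2, Spdef and Clca1 followed, from 9.90 ± 3.86 CPM per kb for Atoh1 to 3.52 ± 3.49 for Clca1 (SD, n = 4 each). In Hypoxia, Tff3 stood at 27.5 ± 37.1, Zg16 at 13.1 ± 18.04, Spink4 at 4.54 ± 2.03 and Atoh1 at 3.396 ± 0.751 CPM per kb (SD, n = 4 each). The other 6 genes lay between 1.36 and 2.55 CPM per kb on average in Hypoxia. The expected background was 0.21 to 0.72 CPM per kb in Hypoxia+Nitrate and 0.872 to 1.21 CPM per kb in Hypoxia. Neighbours in these orders differed by less than the larger SD of the pair.

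The highest places within each group went to the same libraries for most genes, while the order of the other libraries changed from gene to gene. Hypoxia+Nitrate 1 and 4, whose mitochondrial shares were the highest of all libraries, held the 2 highest Hypoxia+Nitrate values in all 10 genes. In 8 of the 10 genes Hypoxia 2, the Hypoxia library with the lowest background share, held the highest Hypoxia value, the exceptions being Spdef and Atoh1. Scaling by TMM used factors of 0.220, 1.65, 2.13 and 0.393 for Hypoxia+Nitrate 1 to 4, and a lower factor gives a higher CPM. The part of these library differences in the results was not tested. With both Hypoxia+Nitrate 1 and 4 left out, 1 member was called, Spink4, and the median log2 fold change of the 10 genes was 1.24. In that fit 11637 of 42069 genes were called, 4243 of them higher, with a median of -0.59 over all genes.

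Some genes stood well above background in Hypoxia and others near it. In the 4 Hypoxia+Nitrate libraries together, counts ran from 7.84 times expected for Clca1 to 1229 times for Tff3. With 1 library left out these ran from 3.47 (without Hypoxia+Nitrate 4) to 12.2 (without Hypoxia+Nitrate 3) for Clca1 and from 764 (without Hypoxia+Nitrate 4) to 1893 (without Hypoxia+Nitrate 2) for Tff3. Over the 4 Hypoxia libraries together, counts were 23.0 times expected for Tff3, 11.04 for Zg16, 4.14 for Spink4 and 3.27 for Atoh1. They were 2.33 times expected for Fcgbp, 2.10 for Agr2, 1.98 for Muc2, 1.97 for Muc13, 1.46 for Spdef and 1.26 for Clca1. Hypoxia 2 carried much of the highest ratios. In Hypoxia 1 to 4 Tff3 stood at 20.8, 92.5, 0.686 and 3.33 times expected. Without Hypoxia 2 the pooled ratio was 8.02 for Tff3, 3.63 for Zg16 and 1.08 for Muc13. All 10 genes exceeded the level that 95% of receptor genes stayed under in Hypoxia+Nitrate 1 and 4, against 7 in Hypoxia+Nitrate 2 and 5 in Hypoxia+Nitrate 3. In Hypoxia the numbers were 3, 8, 2 and 3 in libraries 1 to 4. Expression of Clca1 and Spdef was thus not distinguishable from the receptor genes in any Hypoxia library.

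**Figure D2:**
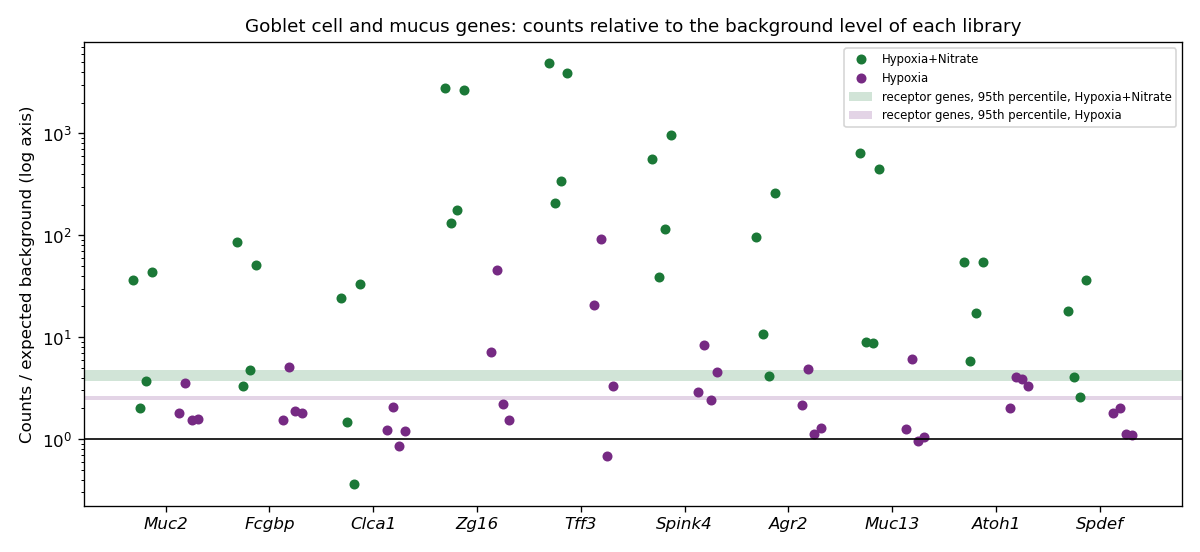
Counts of the 10 genes divided by the background expected in the same library (log axis), with 4 libraries per group. The black line marks a ratio of 1 and the bands span, over the libraries of a group, the ratio that 95% of receptor genes stay under. Tff3 reaches 4844 in Hypoxia+Nitrate 1 and lies at 0.686 in Hypoxia 3.

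Mucins of other organs gave a second view of the background. The gel-forming mucins of airway and stomach, Muc5ac, Muc5b and Muc6, stood at 0.575, 0.413 and 0.462 times expected in Hypoxia+Nitrate and at 1.64, 1.66 and 1.48 times in Hypoxia. The Hypoxia+Nitrate values came mostly from Hypoxia+Nitrate 2, without which they were 0.181, 0.0205 and 0.225, and without Hypoxia 1 that of Muc6 in Hypoxia was 0.953. Muc2 stood at 11.9 times expected in Hypoxia+Nitrate and at 1.98 times in Hypoxia. In Hypoxia 2 Muc2 was at 3.58 times expected, above the level of 2.63 that 95% of receptor genes stayed under there, while the 3 mucins together were at 1.62 times. Muc19 was at 4.27 times expected in Hypoxia+Nitrate and 4.21 times in Hypoxia. None of these 4 mucins was called in either direction by edgeR, although their log2 fold changes, from -3.20 to -1.21, were all negative. After the subtraction described next, Muc5ac and Muc5b were among 1374 lower of 15007 genes.

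The expected background was subtracted before a limma-voom fit of 15007 protein-coding genes, with counts below it set to 0. In that fit 4.24% of genes were called higher and 1374 genes lower, and the only member called was Zg16. Its log2 fold change was 4.66 (SE 1.16, limma adjusted p = 0.0266, range over 26 alternatives 9.37e-05 to 0.975). Tff3, Spink4 and Muc13 had values of 5.41 (SE 1.74), 3.36 (SE 1.06) and 5.73 (SE 2.11) on the log2 scale and did not pass (limma adjusted p = 0.0694, 0.0642 and 0.0990; ranges over 26 alternatives 0.00143 to 0.976, 1.22e-08 to 0.885 and 7.87e-05 to 0.921). Muc2, Fcgbp and Atoh1 were at 0.37 (SE 0.847), 0.74 (SE 0.762) and 0.43 (SE 0.609) on the log2 scale there. In a fit added after seeing the data, the background was first rescaled in each library to the counts of Muc5ac, Muc5b and Muc6, without Muc19. The factors were 0.0652 to 1.02 in Hypoxia+Nitrate and 1.43 to 1.91 in Hypoxia, so more was taken off in Hypoxia than before. With them 5 members were called higher (Zg16, Agr2, Spdef, Spink4 and Muc13), where 27.2% of 12561 genes were higher and 1.8% lower. Muc2 was then at 3.20 (SE 1.34) on the log2 scale and did not pass (limma adjusted p = 0.0911, range over 26 alternatives 0.0199 to 0.989, the low end from a fit in which Muc2 was lower). With the share of background as a covariate 0 members and 0 genes were called in edgeR, and 2640 genes had an unadjusted p under 0.05. That share was 2.74% to 23.2% in Hypoxia+Nitrate and 39.0% to 63.6% in Hypoxia, without overlap. The fit could therefore hardly separate it from the group, and the SE of Tff3 was 2.29 there. No conclusion is drawn from the absence of calls.

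**Figure D3:**
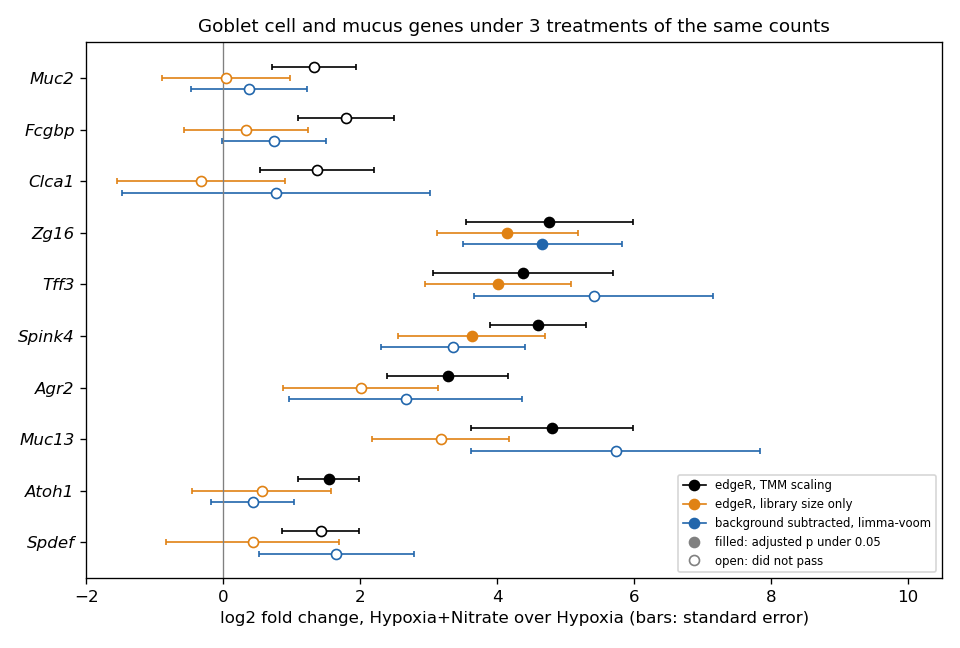
Log2 fold changes of the 10 genes, Hypoxia+Nitrate over Hypoxia, from edgeR with TMM scaling, from edgeR with library size only and from limma-voom after background subtraction. Bars are standard errors and filled points passed an adjusted p of 0.05. Zg16 is filled in all 3, while Muc2 lies at 1.33, 0.04 and 0.37.

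Markers of several other cell types were higher in Hypoxia+Nitrate beside the goblet genes. The summed level of the 10 genes was 289.4 to 2010 CPM in Hypoxia+Nitrate and 56.2 to 201.1 CPM in Hypoxia. The general epithelial genes (Epcam, Cdh1, Krt8, Krt18, Krt19 and Cldn7) summed to 322.2 to 4826 CPM in Hypoxia+Nitrate and 32.9 to 162.5 CPM in Hypoxia, and all 6 were higher. The enterocyte markers, among them Fabp2 and Anpep, summed to 1238 to 43120 CPM in Hypoxia+Nitrate and 58.6 to 779 CPM in Hypoxia, and 10 of 10 were higher. The Paneth cell markers summed to 298.7 to 1082 CPM in Hypoxia+Nitrate and 21.1 to 102.6 CPM in Hypoxia, with 6 of 7 higher, and 5 smooth muscle markers to 1292 to 2811 CPM in Hypoxia+Nitrate and 58.5 to 407.6 CPM in Hypoxia, with 5 of 5 higher. Of the other secretory types, 1 of 8 enteroendocrine and 0 of 6 tuft cell markers were higher, against 11.7% of all genes and 18.5% of protein-coding genes. The tuft cell markers together were near background, at 1.96 to 2.89 times expected in Hypoxia+Nitrate and 1.33 to 1.64 in Hypoxia. Stem cell markers gave 0 of 5 and plasma cell markers 2 of 3 higher, while of 5 pancreas markers and the 1 stomach marker tested 0 were higher and 1 each was lower. Cela2a of pancreas and Gkn1, Gkn2 and Tff1 of stomach were at 0 in all Hypoxia+Nitrate libraries. The part of these cell types in the goblet result was not tested.

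Relative to the general epithelial genes the picture differed by gene. After background subtraction, Muc2 had 12.4, 13.4, 39.4 and 14.6 counts per 1000 counts of the 6 epithelial genes in Hypoxia+Nitrate 1 to 4, against 133.3, 106.6, 222.9 and 227.1 in Hypoxia 1 to 4. All Hypoxia+Nitrate values were below all Hypoxia values, and the same held for Fcgbp, with 25.5 to 81.5 in Hypoxia+Nitrate and 129.4 to 541.8 in Hypoxia. The share of all genes without overlap on this scale was not computed. In Hypoxia 1, 3 and 4 and Hypoxia+Nitrate 2 and 3, neither gene exceeded the level that 95% of receptor genes stayed under. After subtraction the 6 epithelial genes held 60154, 6833, 5755 and 98871 counts in Hypoxia+Nitrate 1 to 4. They held only 780, 2069, 352 and 310 in Hypoxia 1 to 4. In a limma-voom fit scaled to these genes, chosen after seeing the data, Muc2 was lower by a log2 fold change of -3.21 (SE 1.09, adjusted p = 0.0199) and Fcgbp by -2.77 (SE 1.01, adjusted p = 0.0283; ranges over 26 alternatives 0.0199 to 0.989 and 0.0139 to 0.887). In that fit 52.3% of 15007 genes were called lower and 0.273% higher, and all genes had a median of -3.62 on the log2 scale, below the values of both Muc2 and Fcgbp. Zg16 (0.60, SE 1.07), Tff3 (1.05, SE 1.37) and Spink4 (-0.23, SE 1.3) did not pass there, and Zg16 overlapped, with 161.7 to 457.7 in Hypoxia+Nitrate and 37.3 to 324.8 in Hypoxia. Atoh1 was at -3.05 (SE 1.28) on the log2 scale and did not pass (limma adjusted p = 0.0504, range over 26 alternatives 0.00334 to 0.971). Both calls depended on the background taken off. With the background rescaled to Muc5ac, Muc5b and Muc6 the log2 fold changes were -0.26 (SE 1.57) for Muc2 and -1.06 (SE 1.56) for Fcgbp, and 0 of the 10 genes passed, where 2.93% of genes were lower and 0.0398% higher.

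**Figure D4:**
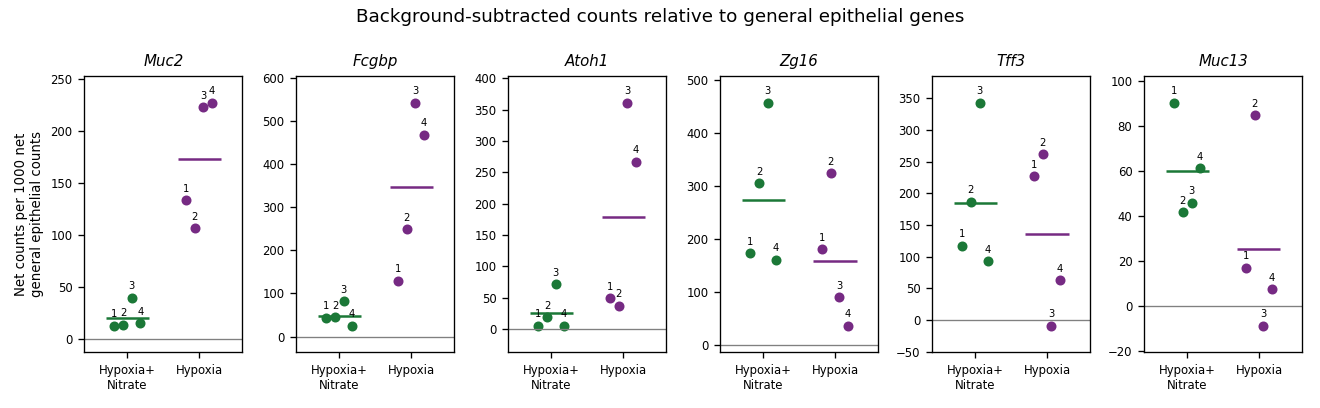
Background-subtracted counts of 6 of the genes per 1000 background-subtracted counts of 6 general epithelial genes (linear axes), with the library number at each point and lines at group means of 4 libraries. Muc2 and Fcgbp lie lower in every Hypoxia+Nitrate library than in every Hypoxia library, while Atoh1, Zg16, Tff3 and Muc13 overlap. The epithelial counts divided by are few in Hypoxia, down to 352 and 310 in Hypoxia 3 and 4.

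The makeup of the goblet signal differed for some genes. Of the background-subtracted counts of the 10 genes, Zg16 held 37.0% to 44.7% in the Hypoxia+Nitrate libraries, against 21.2%, 28.3%, 7.08% and 3.01% in Hypoxia 1 to 4. Muc2 held 1.96% to 3.57% in Hypoxia+Nitrate and 9.27% to 18.4% in Hypoxia. Fcgbp held 6.23% to 9.36% in Hypoxia+Nitrate and 15.1% to 42.2% in Hypoxia. The share of Tff3 overlapped, at 22.7% to 29.4% in Hypoxia+Nitrate, against 26.5%, 22.8%, -0.71% and 5.11% in Hypoxia 1 to 4, where a negative share means fewer counts than expected from background. These shares do not depend on the scaling between libraries, but they do depend on the background taken off, which grows with gene length. The exonic lengths were 477 bp for Spink4, 493 bp for Tff3 and 1257 bp for Zg16, against 7127 bp for Muc2 and 10497 bp for Fcgbp.

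Other genes of goblet cells and mucus were read from the same fits, in which 11.7% of all genes and 18.5% of protein-coding genes were higher, or 4.24% after background subtraction. Lower were 12.7% of all genes, and 1374 of 15007 genes after background subtraction. Of 17 further goblet cell genes 6 rose and 0 fell, with a median log2 fold change of 1.46. Capn9, a calpain of the gut, rose by 2.65 (SE 0.633, edgeR adjusted p = 0.0154) on the log2 scale, Mlph, which links secretory vesicles to myosin, by 1.98 (SE 0.519, edgeR adjusted p = 0.0210), and the chemokine Ccl6 by 2.54 (SE 0.685, edgeR adjusted p = 0.0233). Of 23 genes of protein folding and granule secretion 8 rose and 0 fell, with a median of 1.33. The disulfide isomerases P4hb and Pdia3 rose by 5.401 (SE 1.21, edgeR adjusted p = 0.0122) and 2.93 (SE 0.680, edgeR adjusted p = 0.0137), and Vamp8, a SNARE protein of mucin granule release, by 3.51 (SE 0.822, edgeR adjusted p = 0.0143). After background subtraction 0 of 17 goblet genes and 2 of 22 folding genes, P4hb and Pdia6, were higher. The 0 comes from limma-voom on subtracted counts of protein-coding genes, against 6 of 17 in edgeR without subtraction. These 2 fits differ in the tool, the counts and the genes tested.

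Of 19 genes of secretory fate and Notch signalling other than Atoh1 and Spdef, 2 rose and 0 fell, with a median log2 fold change of 0.09. They were Klf4, needed for goblet maturation in the colon, by 4.18 (SE 0.985, edgeR adjusted p = 0.0146), and the epithelial factor Elf3 by 3.42 (SE 0.871, edgeR adjusted p = 0.0191). Hes1, the Notch target that represses Atoh1, did not pass (1.84, SE 0.619, edgeR adjusted p = 0.0515). After background subtraction, where 1374 of 15007 genes were lower, 0 of 16 genes of this list were higher and 2 were lower. These were Neurog3, the factor that sets the enteroendocrine fate (log2 fold change -6.82, SE 1.41, limma adjusted p = 0.0106), and the Notch ligand Dll4 (-4.91, SE 1.22, limma adjusted p = 0.0268). Neurog3 stood at 0.621 times expected in Hypoxia+Nitrate and 2.71 in Hypoxia, and Dll4 at 1.27 and 1.85. Subtraction set counts below the expected background to 0, so the size of both changes is uncertain. Of 19 mucin glycosylation genes 2 rose and 1 fell, with a median of 0.18. The sialyltransferase St3gal4 rose by 4.54 (SE 0.925, edgeR adjusted p = 0.00950), and Galnt3, which starts O-glycans, by 1.38 (SE 0.365, edgeR adjusted p = 0.0218). St6galnac1, which adds sialic acid to mucins, had 0, 4, 0 and 0 counts in Hypoxia+Nitrate 1 to 4, against 49, 30, 63 and 71 counts in Hypoxia 1 to 4, and fell (edgeR adjusted p = 0.0140), with Hypoxia counts at 1.31 times expected background. After subtraction 0 of 17 glycosylation genes were called in limma-voom.

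Among 12 genes of ion transport and mucus processing 5 rose and 0 fell, with a median log2 fold change of 1.27. Guanylin (Guca2a) and uroguanylin (Guca2b), peptides that drive fluid secretion, rose by 5.04 (SE 0.971, edgeR adjusted p = 0.00917) and 5.92 (SE 1.37, edgeR adjusted p = 0.0138), and Mep1b, a meprin subunit of the protease that helps to release Muc2 from goblet cells, by 4.37 (SE 0.975, edgeR adjusted p = 0.0120). Membrane mucins other than Muc13 split, with a median log2 fold change of -2.02. Muc3a, an entry apart from Muc3, did not pass (1.04, SE 1.08, edgeR adjusted p = 0.471). Of 8 genes 2 rose, Muc3 by 4.89 (SE 1.12) and Cdhr5, a mucin-like protocadherin of the brush border, by 4.98 (SE 1.16; edgeR adjusted p = 0.0132 and 0.0140). Muc4, Muc15 and Muc16 fell, with log2 fold changes of -3.90 (SE 0.896), -4.595 (SE 1.42) and -3.70 (SE 1.02; edgeR adjusted p = 0.0132, 0.0379 and 0.0251), with Hypoxia counts at 1.73, 0.819 and 1.32 times expected background. After subtraction 0 of 10 ion transport and processing genes were called, and of 7 membrane mucin genes 0 were higher and 3 lower (Muc4, Muc16 and Muc20). In that fit 1374 of 15007 genes were lower. Muc4, Muc16 and Muc20 stood at 0.277, 0.240 and 0.329 times expected in Hypoxia+Nitrate, below the background itself, and Muc20 at 1.90 times in Hypoxia. Of 8 genes of the type 2 response that increases goblet cells (cytokines, their receptors and the transcription factor Stat6) 7 were tested, of which 2 rose, Stat6 by 2.55 (SE 0.716, edgeR adjusted p = 0.0270) and Il13ra1 by 1.95 (SE 0.597, edgeR adjusted p = 0.0372), and 0 fell.

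In the pattern over the 8 libraries, the 5 named genes most like Muc2 were Ltc4s, Akap10, Ap2a1, Cmas and Ddx54, with Pearson r of log2 CPM from 0.987 to 0.991 among 16550 genes compared. Cmas, which activates sialic acid for transfer to glycans, held 94.1, 3.98, 9.53 and 198.1 CPM in Hypoxia+Nitrate 1 to 4, against 4.81, 13.2, 5.01 and 3.13 CPM in Hypoxia 1 to 4. Of the other members Fcgbp came closest to Muc2 (r = 0.949, place 282) and Atoh1 was the farthest (r = 0.730, place 4932). These coefficients describe 8 libraries in 2 groups of differing composition.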

How the data were processed

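Gene-level read counts, not normalized, were deposited by the authors for 8 samples, as a joint table and as 1 table per sample; all 8 per-sample columns were identical to the joint table. Per the submitters' processing notes, HISAT, DESeq (1.8.3) and featureCounts (1.5.0-p3) were used with genome build GRCm38. Annotation and strand setting were not given in the sources used here. Per the labels' protocols RNA came from islets, while the tissue label reads small intestine. Of 55421 gene IDs 55154 matched GENCODE M21, which gave positions and exonic lengths.

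Counts were tested in R 4.3.3 with edgeR 4.0.16: genes were kept by filterByExpr (at least 10 counts, at least 15 in total), scaled by TMM, and Hypoxia+Nitrate was compared with Hypoxia by the quasi-likelihood test, adjusted by Benjamini-Hochberg over all genes at 0.05. Background was the density of counts over 1468 autosomal receptor genes with at least 200 bp of unique exonic sequence, multiplied by a gene's unique exonic length (0.5 times on X and Y). Fits on subtracted counts used limma 3.58.1; DESeq2 1.42.0 was an alternative. The edgeR and limma-voom fits were tested on simulated counts. Apart from genes changed on purpose, background and makeup did not differ between the simulated libraries, so that test gives no assurance for such differences here. No 2 libraries of a group agreed within sampling noise. Named genes were all 10 members and from every other list the 3 genes, at most, of smallest p, not all of them printed; further genes named beside a count were chosen after their values were seen. Genes like Muc2 were ranked by log2(CPM + 0.5) among genes whose log2 CPM averaged 1 or more, leaving out predicted models. The members, lists and background estimate were chosen with earlier results of these data known. Depth is given as total counts per library.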

Additional observations from a re-analysis of the deposited data

Results flagged for a closer look

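In 20 groups of 4 values (10 genes in 2 groups), 3 had 1 library far from the other 3, with a gap to its nearest neighbour, as a share of the whole range, above the critical value of Dixon's test; chance gives about 1 in 20 groups. Fcgbp in Hypoxia 2 stood at 46.6 CPM, above 19.4 to 21.5 CPM in the other Hypoxia libraries, and without Hypoxia 2 its log2 fold change was 2.22 (SE 0.799, edgeR adjusted p = 0.0847, range over 26 alternatives 0.0139 to 0.887). Muc13 in Hypoxia 2 stood at 15.3 CPM, above 2.95 to 4.34 CPM, and its log2 fold change without that library was 5.71 (SE 1.36, edgeR adjusted p = 0.0249, range over 26 alternatives 7.87e-05 to 0.921). Atoh1 in Hypoxia+Nitrate 2 stood at 8.87 CPM, below 23.7 to 26.8 CPM in the other Hypoxia+Nitrate libraries, and its log2 fold change without that library was 1.83 (SE 0.392, edgeR adjusted p = 0.00334, range over 26 alternatives 0.00334 to 0.971).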

How the results depend on the processing

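Over 26 alternatives, 3 of them added after seeing the data, the 10 log2 fold changes kept their direction and side of the threshold in 165 of 260 cases, lost the call in 59, gained it in 10 and reversed in 26. The cause of each change was not tested. Against 8653 genes called by edgeR with TMM, leaving out 1 library gave 1932 to 22454 genes and 1 to 9 members. Library size only gave 1800 genes and 3 members, and reversed Clca1 (-0.32). Of the calls under TMM, 48.1% were higher, with a median of -0.58 over all genes; RLE gave 35.0% and -0.87, upper-quartile factors 34.4% and -0.94, and library size 13.5% and -1.07. Scaling to general epithelial genes gave 21463 genes and 3 members, all 3 lower, with log2 fold changes of -3.33 for Muc2, -2.95 for Fcgbp, -3.996 for Clca1, -1.65 for Agr2, -2.89 for Spdef, -0.45 for Muc13 and -2.50 for Atoh1, where all genes had a median of -4.17. No filter gave 16708 genes, DESeq2 22228, limma-voom 15818 and limma-voom with quality weights 20696. Both Hypoxia+Nitrate 1 and 4 left out gave 11637 genes and 1 member and reversed Muc2 (-0.074) and Clca1 (-1.04). Both Hypoxia 1 and 2 left out gave 4227 genes and 3 members.

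Background subtraction gave 2011 genes and 1 member. The covariate, whose values did not overlap between the groups, gave 0 genes and 0 members. The log2 fold changes were then -1.62 for Muc2, -1.97 for Fcgbp, -2.51 for Clca1, -0.38 for Agr2 and -1.45 for Muc13. Subtraction with epithelial scaling gave 2 members, both lower, and -3.21 for Muc2, -2.77 for Fcgbp, -2.47 for Clca1, -0.96 for Agr2, -2.20 for Spdef, -0.23 for Spink4 and -3.05 for Atoh1. The rescaled background gave 3641 genes, and with epithelial scaling 373 genes, 0 members, and -0.26 for Muc2, -1.06 for Fcgbp, -0.60 for Spink4 and -3.08 for Atoh1. Subtraction with epithelial scaling and both fits with the rescaled background were the alternatives added after seeing the data. Samples with the same replicate number did not deviate together (correlations of deviations 0.0506, -0.182, 0.184 and -0.0503), and not every sample correlated best with its own number. A replicate block gave 4791 genes and 3 members, Tff3, Zg16 and Spink4. The effect of depth on these values was not tested.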
